A study of Rattus norvegicus with 4 samples.

Results

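The splice variants described here are the rows of the deposited Cacna1e count table that were not among the variants the study prioritized, that is, those whose identifier is not a name in the study's list of prioritized structures. There were 1956 such variants among 2108 in the table, and the other 152 were prioritized. Prioritization asked for a long predicted open reading frame that encodes all 4 pore-forming domains, so a variant outside the set had no such frame or lacked part of a domain, and that property is how the variants were chosen and not a result. Read counts were not used in the choice. Variants are named here by the first 8 characters of their read identifier, with any numbered suffix.

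The libraries came from the thalamus of 4 male rats. GAERS10 and GAERS90 were made from Genetic Absence Epilepsy Rats from Strasbourg, an inbred strain with spontaneous absence seizures, at postnatal days 10 (P10) and 90 (P90), and NEC10 and NEC90 came from the Non-Epileptic Control strain at the same ages. No treatment is given for any group. RNA was copied into cDNA from oligo-dT, Cacna1e was amplified with primers placed at both ends of the coding sequence, and the products were read on an Oxford Nanopore MinION. Each strain and age was 1 animal and 1 library, so there were no replicates, and strain is compared over 2 libraries against 2, as is age. Only 1 gene was amplified, so the tissue could not be checked against marker genes, and the values are shares of the gene's reads and do not give the level of the gene. The deposited counts summed to 349166 reads in NEC10, 669644 in GAERS10, 1498009 in NEC90 and 1544028 in GAERS90. In these Cacna1e counts both P90 libraries were therefore deeper than both P10 libraries, by up to 4.42-fold. The total reads that the study lists were also higher in both P90 libraries, with a narrower gap. Depth and age cannot be told apart in this design. P90 libraries supplied 74.9% of all reads, and the variants themselves were defined by the authors on the reads of all 4 libraries pooled.

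Cacna1e encodes the pore-forming alpha-1 subunit of the Cav2.3 (R-type) voltage-gated calcium channel, which is expressed in thalamic neurons and takes part in their burst firing. The subunit folds into homologous domains (I to IV), each a bundle of membrane-spanning segments that contributes a voltage sensor and a side of the pore, followed by a C-terminal tail with GPHH and IQ motifs that bind calmodulin. Cassette exons are exons that are either kept or skipped as a unit, and a skip whose length is not a multiple of the codon length shifts the reading frame downstream of it.

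Nucleotide sequences of 8 of these variants were at hand and are shown first, at the joints that set them apart from a transcript with all 48 exons. Exons are numbered 1 to 48 along a prioritized variant that carries all of them, spans chr13:71907172-72367980 on the minus strand of rn6 and holds 6947 nt of exon. All 8 sequences opened with the same 20 nt followed by the start of exon 7, so that exons 1 to 6, which encode the first part of domain I, were absent. In the line below, those 20 nt are in lower case and the first 40 nt of exon 7 in capitals. Those 20 nt are rich in T and end in AG, the letters that usually close an intron. The forward primer lay at the start of the coding sequence, and none of the 8 sequences holds that site. These 8 were the ones at hand, so their common start is not shown to hold for the other variants.
All 8 variants, start of the sequence: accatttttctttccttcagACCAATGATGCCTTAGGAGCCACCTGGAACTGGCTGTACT
Joints are printed with the last 40 nt of the upstream exon in lower case and the first 40 nt of the downstream exon in capitals. Variant e27b6124 kept exons 14 and 15 together, whereas 3 others went from exon 13 or 14 to the exons that close domain IV or follow it. Variant 8b89bf78 went from exon 21 to exon 45.
e27b6124, exon 14 to exon 15: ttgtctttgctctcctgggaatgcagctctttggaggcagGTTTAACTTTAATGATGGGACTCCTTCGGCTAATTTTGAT
d00381a7, exon 14 to exon 38: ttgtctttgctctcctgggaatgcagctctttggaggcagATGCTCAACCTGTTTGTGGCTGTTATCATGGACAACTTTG
41d6a890, exon 14 to exon 39: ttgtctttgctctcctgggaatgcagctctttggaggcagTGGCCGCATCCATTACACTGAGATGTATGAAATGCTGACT
144eb14c, exon 13 to exon 40: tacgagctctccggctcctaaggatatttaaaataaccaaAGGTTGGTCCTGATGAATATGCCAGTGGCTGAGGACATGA
8b89bf78, exon 21 to exon 45: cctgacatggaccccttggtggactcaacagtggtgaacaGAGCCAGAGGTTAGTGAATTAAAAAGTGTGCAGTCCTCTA
The next lines show exon 31, at the start of domain IV, joined to 4 different exons. The part in lower case is the same in each line and the part in capitals differs.
1844f037, exon 31 to exon 32: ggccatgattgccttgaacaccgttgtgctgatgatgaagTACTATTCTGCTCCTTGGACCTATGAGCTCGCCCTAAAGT
53c4985e, exon 31 to exon 35: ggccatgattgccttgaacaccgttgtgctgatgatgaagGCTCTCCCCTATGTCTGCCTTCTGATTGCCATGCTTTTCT
339c6ce8, exon 31 to exon 36: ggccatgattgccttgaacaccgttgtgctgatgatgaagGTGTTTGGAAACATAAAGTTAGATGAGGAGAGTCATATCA
e27b6124, exon 31 to exon 37: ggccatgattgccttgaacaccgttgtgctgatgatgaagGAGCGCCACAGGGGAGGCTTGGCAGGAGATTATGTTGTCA
Variant 1844f037 also lacked exon 39, which lies in the region of the GPHH motif.
e27b6124, exon 38 to exon 39: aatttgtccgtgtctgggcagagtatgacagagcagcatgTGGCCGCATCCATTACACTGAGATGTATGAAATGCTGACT
1844f037, exon 38 to exon 40: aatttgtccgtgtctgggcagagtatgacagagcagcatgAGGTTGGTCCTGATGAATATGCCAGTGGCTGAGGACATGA
The last pair crosses the place of exon 26, a microexon of 12 nt in domain III. In e27b6124 exon 25 ran straight into exon 27. In 53c4985e a run of 16 nt, which opens with the letters gtaagt, stood between them, and it is printed in lower case after the 40 nt of exon 25.
e27b6124, exon 25 to exon 27: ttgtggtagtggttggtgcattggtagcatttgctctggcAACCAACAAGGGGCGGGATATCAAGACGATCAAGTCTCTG
53c4985e, exon 25 to exon 27: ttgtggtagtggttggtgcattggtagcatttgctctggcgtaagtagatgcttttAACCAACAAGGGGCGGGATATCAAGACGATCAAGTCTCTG

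The skips in these 8 variants differed in span and in frame. The joint from exon 14 to exon 38 in d00381a7 left out 23 exons and 3259 nt of coding sequence, with a remainder of 1 nt when divided by the codon length, and bridged chr13:71928427-71988565. One exon further on, the joint to exon 39 in 41d6a890 left out 3387 nt, a multiple of the codon length. The joint from exon 13 to exon 40 in 144eb14c removed 26 exons and 3616 nt and bridged chr13:71921505-71988961. In 8b89bf78, the joint from exon 21 to exon 45 removed 2636 nt and bridged chr13:71912532-71976487. After exon 31, the skip of exons 32 to 34 in 53c4985e (321 nt) and that of exons 32 to 35 in 339c6ce8 (387 nt) were multiples of the codon length, while the skip of exons 32 to 36 in e27b6124 (479 nt) was not. The 16-nt run of 53c4985e, upstream of its skip, is not a multiple of the codon length. Variant 1844f037 lacked exon 33 (84 nt), in frame, and exon 39 (97 nt), out of frame, and 339c6ce8 also lacked exon 9 (54 nt). Exon 26 was absent from all 8 and exon 45 present in all 8, and 7 of the 8 reached exon 48.

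These 8 variants had few reads. The most read, e27b6124, had 4 reads in NEC10, 3 in GAERS10, 79 in NEC90 and 65 in GAERS90, and ranked 1289 among the 1956. Variant 53c4985e, with the 16-nt run, had 4, 13, 70 and 58 reads in the same order. Variant 339c6ce8 had 5, 6, 75 and 42 reads, and 1844f037 had 2, 3, 44 and 52. In each of these 4 variants both P90 shares lay above both P10 shares, as they did in 64.8% of all 2108 variants. Among those with the longest skips, d00381a7 had 0, 3, 42 and 44 reads, 41d6a890 had 2, 2, 44 and 35, and 144eb14c had 1, 1, 41 and 19. A count of 0 in NEC10 allows a share of up to 0.000859% of that library. Variant 8b89bf78 was listed with 1 read, in NEC90. The 8 together held 18, 31, 396 and 315 reads, so they carry the sequence detail and little of the signal.

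The 1956 variants outside the prioritized set held 1554492 of 4060847 reads (38.3%). Their share was 35.4% of the reads in NEC10 (Wilson 95% interval 35.3 to 35.6%), 37.2% in GAERS10 (37.1 to 37.3%), 40.3% in NEC90 (40.2 to 40.4%) and 37.4% in GAERS90 (37.4 to 37.5%). Amplified molecules were not tagged before PCR, so every interval and upper limit given here reflects counting error alone. NEC90 stood above the other libraries and NEC10 below them. The mean was 38.9% at P90 and 36.3% at P10, a difference of 2.57 percentage points (two-sided exact permutation test, p = 0.333, n = 2 libraries per age, where 0.333 is the smallest p that 2 against 2 can give). It ranged from 1.14 points without NEC90 to 3.997 points without GAERS90. Within NEC the older library was 4.86 points higher and within GAERS 0.28 points higher. Between strains the means were 37.3% for GAERS and 37.9% for NEC, a difference of -0.56 points (exact permutation p = 1), and without NEC90 the sign of this difference turned, to 1.87 points.

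No single variant dominated these reads. The median variant outside the set had 346.5 reads over the 4 libraries (quartiles 97 and 922), against a median of 1001 for the prioritized variants. Only 13 variants had 10000 reads or more, and they held 21.2% of the reads of the group. A further 400 had 1000 to 9999 reads and held 46.9%, and 1042 had 100 to 999 reads and held 30.4%. The remaining 445 with 10 to 99 reads and 56 with 9 or fewer held 1.55% and 0.019%. Of these reads, 50% lay in 180 variants, 90% in 891 and 99% in 1554. In the prioritized set, 12 of the 152 variants had 10000 reads or more and held 92.9% of its reads.

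The 20 most read variants held 24.9% of the reads of the group. Exon structures of these 20 were not analysed here. The first, 93b7dee3-2, held 3.79% of the reads in NEC10 (13247 reads), 3.08% in GAERS10 (20640), 1.36% in NEC90 (20428) and 1.29% in GAERS90 (19960). It was the most read variant of the group in 3 of the 4 libraries, and both P10 shares were more than 2-fold the P90 shares. On column totals it fell with age by 1.37 on the log2 scale (SE 0.29, edgeR adjusted p = 0.0194), and with TMM factors the call was lost (log2 fold change -2.29, edgeR adjusted p = 0.0652). The next, 7022b0a4, went the other way, with 0.575% in NEC10, 0.609% in GAERS10, 0.993% in NEC90 and 1.41% in GAERS90, and it led the group in GAERS90. Its ages did not overlap, but the difference did not pass the test (edgeR adjusted p = 0.0569). Variant ccef669e-1 held 1.62%, 1.30%, 0.630% and 0.861% of NEC10, GAERS10, NEC90 and GAERS90, again without overlap of the ages and with an edgeR adjusted p of 0.0595. Variant 1a65b4d4, at 0.272%, 0.290%, 0.641% and 1.06% in the same order, was the only one of the 20 called higher at P90 (log2 fold change 1.60, SE 0.43, edgeR adjusted p = 0.0288). That call was lost with TMM factors (log2 fold change 0.71, edgeR adjusted p = 0.492) and in DESeq2 (0.70, adjusted p = 0.438).

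**Figure D1:**
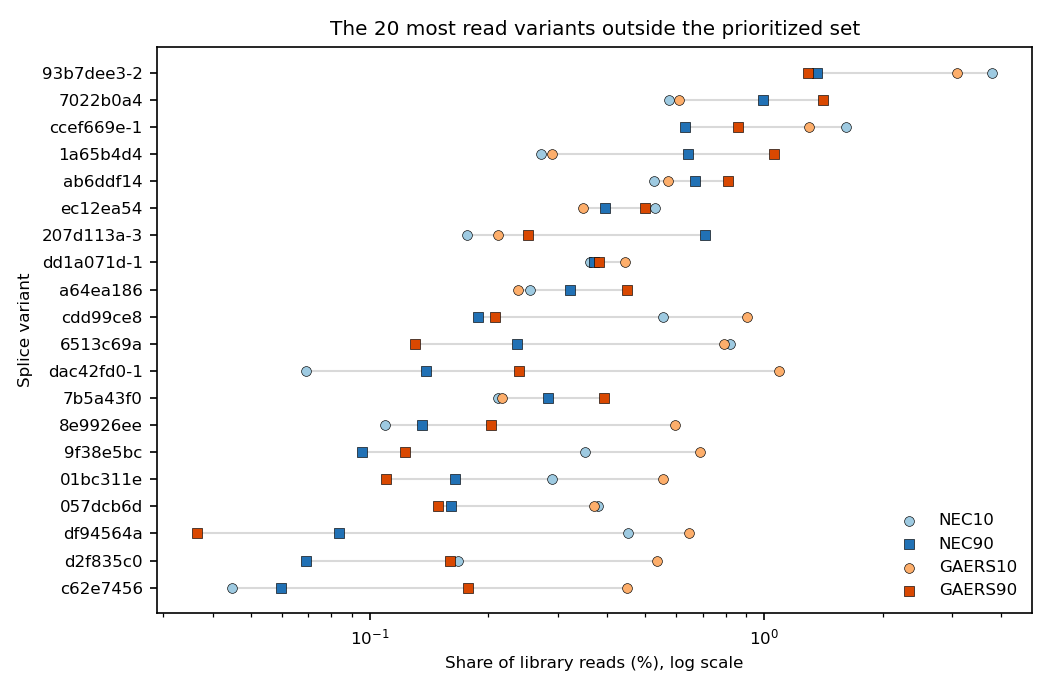
Share of library reads (%, log scale) of the 20 most read variants outside the prioritized set, by library. Circles are P10 and squares P90, blue is NEC and orange GAERS, and grey lines span the 4 libraries. In 9 variants both P90 points lie left of both P10 points, in 6 they lie right of them, and in 5 the ages overlap.

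Among the 20, 9 had both P90 shares below both P10 shares, 6 had both above, and in 5 the ages overlapped. Over all 2108 variants, 3.89% had both P90 shares below both P10 shares and 64.8% had both above. Of the 9, 6 passed the edgeR test on column totals, and all 6 calls were lost with TMM factors, under which their log2 fold changes were -4.22 to -2.29. Variant df94564a had the widest change, with 0.453% in NEC10, 0.646% in GAERS10, 0.0836% in NEC90 and 0.0365% in GAERS90 (log2 fold change -3.19, SE 0.58, edgeR adjusted p = 0.0168). Variant 9f38e5bc held 0.353%, 0.689%, 0.0959% and 0.123% in that order (-2.25, SE 0.52, edgeR adjusted p = 0.0221), and 6513c69a held 0.820%, 0.790%, 0.237% and 0.130% (-2.13, SE 0.46, edgeR adjusted p = 0.0204). In all 3, each P10 share was more than 2-fold each P90 share. Variant cdd99ce8 fell by 1.88 and 01bc311e by 1.62 on the same scale (edgeR adjusted p = 0.0237 and 0.0422). The call on 01bc311e was lost without NEC90 (log2 fold change -1.94), without GAERS10 (-1.08) or without GAERS90 (-1.36). It was also lost with strain as a block (-1.57, edgeR adjusted p = 0.0732) and among variants with at least 10 reads in every library (-1.62, edgeR adjusted p = 0.0513). Calls on cdd99ce8 and 9f38e5bc were lost without NEC90 (log2 fold change -1.82 and -2.08), and that on 1a65b4d4 without GAERS90 (log2 fold change 1.19). The variants with overlapping ages included dac42fd0-1, at 0.0690% in NEC10, 1.09% in GAERS10, 0.139% in NEC90 and 0.239% in GAERS90, and c62e7456, at 0.0447%, 0.449%, 0.0597% and 0.177%. Both were highest in GAERS10.

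Across all variants, the age comparison used edgeR on the column totals, so that a fold change is a change in share. Of 1894 variants tested, 617 passed an adjusted p of 0.05 (32.6%), 595 higher at P90 (31.4%) and 22 lower (1.16%). Of the variants outside the prioritized set, 1742 passed the filter on low counts and 214 did not, and 546 of those tested were called, 526 higher and 20 lower at P90 (31.3% of those tested). At a minimum of 10 reads in every library 349 of 1182 were called, 335 higher and 14 lower, beside 418 of 1330 over all variants. Of the single omissions, those of NEC90 and GAERS10 lowered the count of 546 most. Outside the set the median log2 fold change in these fits was 0.74 and 0.87, against 0.75 and 0.87 over all variants tested. In the prioritized set 71 of 152 were called, 69 higher and 2 lower. The median log2 fold change was 0.95 outside the set and 0.96 over all variants tested, most of which were outside it. The share called was 31.3% outside the set and 46.7% in it, and both P90 shares lay above both P10 shares in 64.0% and 74.3%, a difference that was not tested. These directions depended on the scaling. With TMM factors the median over all variants moved by -0.94, to 0.02, and only 2 variants outside the set were called (0.106% of all tested), 72602792 higher (0.0528%) and 8d3253b4 lower (0.0528%) at P90 (the second chosen here after its value was seen). With DESeq2 size factors 104 were called outside the set, 13 higher and 91 lower. Over all 2108 variants DESeq2 called 119, 14 higher and 105 lower. On column totals the median variant was thus itself higher at P90, and TMM factors set that median near 0. In simulated tables with the same totals, the fit recovered 80% of 200 variants changed 4-fold for age, with 9 false calls. Changes in those tables went up or down at random with a fixed spread, so they do not test the shift of the median.

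**Figure D2:**
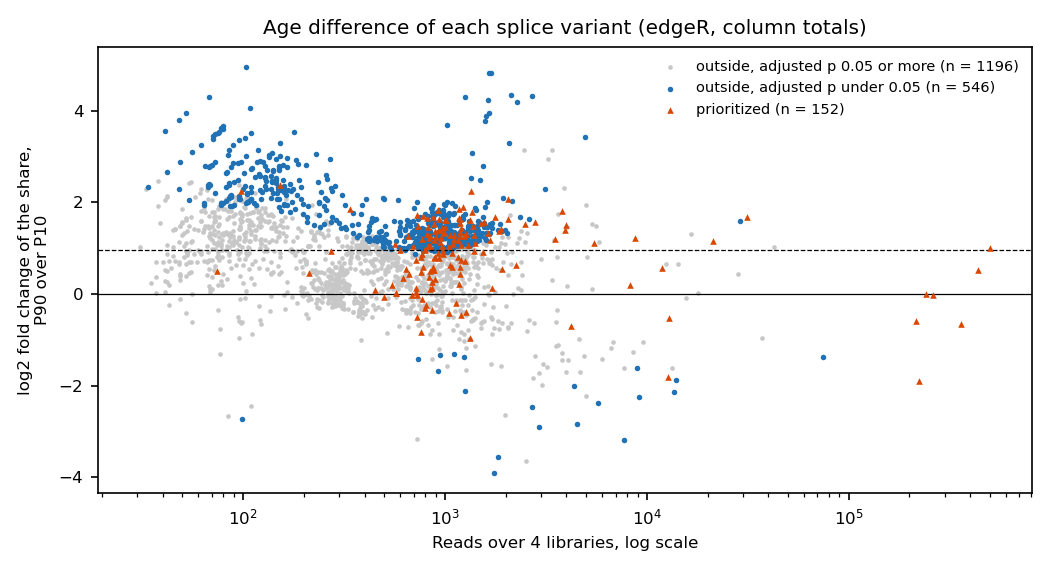
Log2 fold change of the share, P90 over P10 (edgeR, column totals), against reads over the 4 libraries (log scale), 1 point per variant tested. Grey and blue points are variants outside the prioritized set with an adjusted p of 0.05 or more and under 0.05, orange triangles are prioritized variants, the solid line is 0 and the dashed line the median of 0.96. Blue points lie above the dashed line over most of the range and on both sides of 0 among the more read variants, with 1 above and 6 below among the 20 most read.

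The direction of the calls differed by rank in reads. Ranks were taken on reads summed over the 4 libraries, of which P90 supplied 74.9%. A variant's rank therefore depends in part on its age change, and the groups by rank are a description. Of the 20 most read variants, 1 was called higher and 6 lower at P90, with a median log2 fold change of -1.06. Ranks 21 to 100 gave 11 higher and 5 lower (median 0.36), ranks 101 to 500 gave 166 higher and 7 lower (0.87), and ranks 501 to 1000 gave 160 higher and 1 lower (0.82). Of the 956 variants below rank 1000, 742 could be tested, with 188 higher and 1 lower, and a minimum of 10 reads in every library left 191, with 6 higher and 0 lower. At this rarity the first filter is met mainly through the deeper P90 libraries and the second needs a high share in the shallow P10 libraries, so no direction is read from either count. Without any filter, these 956 variants together held 1.79% of NEC10, 1.74% of GAERS10, 3.81% of NEC90 and 2.57% of GAERS90. Down to rank 1000 the stricter minimum gave similar values, with 1 higher and 5 lower among the first 20 (median -1.06) and 153 higher and 1 lower at ranks 501 to 1000 (0.82). Summed over variants, the 100 most read held 18.3% of the reads in NEC10, 21.9% in GAERS10, 13.5% in NEC90 and 15.2% in GAERS90. The other 1856 held 17.1% and 15.3% at P10 but 26.8% and 22.3% at P90. The ages did not overlap in either sum. A similar split was present inside the prioritized set, whose 7 most read variants held 59.6%, 58.6%, 52.8% and 54.9% in the order NEC10, GAERS10, NEC90 and GAERS90, and whose other 145 held 4.98%, 4.22%, 6.95% and 7.62%.

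**Figure D3:**
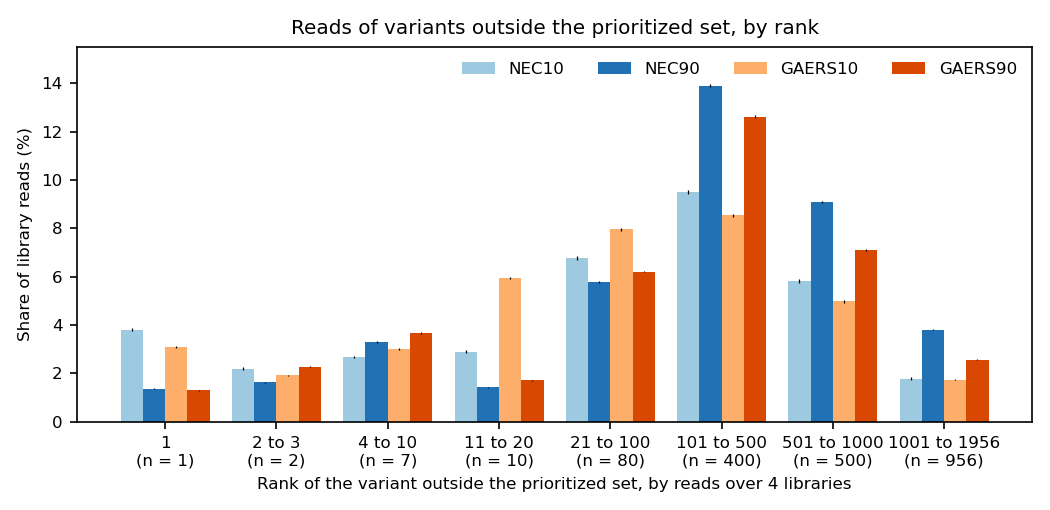
Share of library reads (%) held by variants outside the prioritized set, grouped by rank in reads over the 4 libraries, with the number of variants in each group. Bars are single libraries and error bars are 95% intervals by Wilson's method. The most read variant takes 3.79% and 3.08% of the P10 libraries against 1.36% and 1.29% of the P90 libraries, and from rank 101 on every P90 bar is higher than every P10 bar.

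The spread of reads over variants can be put in 1 number, the effective number of variants (the exponential of the Shannon entropy), which is the number of equally read variants that would give the same evenness. For the variants outside the set it was 353 in NEC10, 299 in GAERS10, 806 in NEC90 and 630 in GAERS90. The P90 libraries averaged 717.8 and the P10 libraries 325.6 (exact permutation p = 0.333, the smallest possible with n = 2 per age). With every library thinned to 349166 reads the values were 353, 299, 809 and 627 in that order. Thinning equalises the column totals only, and the variants had been defined on pooled reads that came mostly from P90. In the prioritized set the effective number was 10.5, 9.81, 12.4 and 11.8. The 10 most read variants of each library held 27.9% and 27.7% of the group's reads in NEC10 and GAERS10, against 15.8% in NEC90 and 19.9% in GAERS90.

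**Figure D4:**
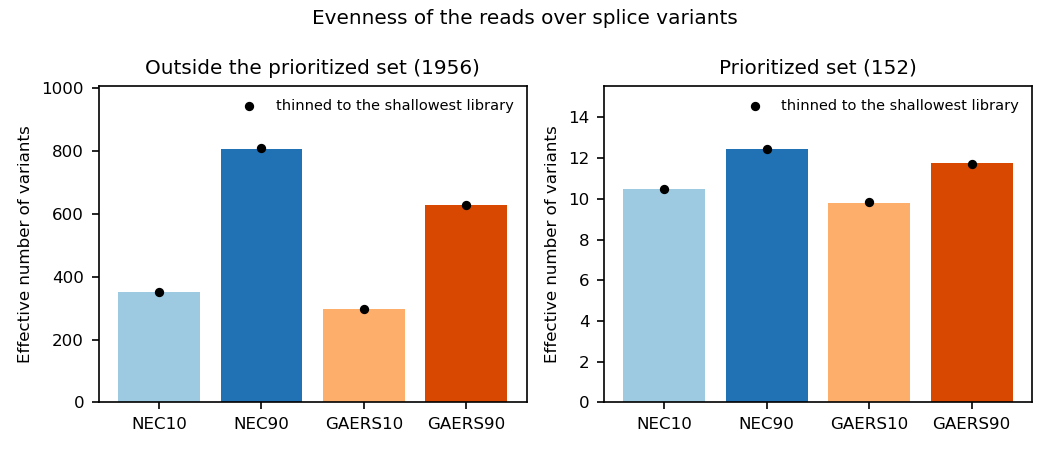
Effective number of variants (exponential of the Shannon entropy) in each library, for variants outside the prioritized set (left) and prioritized variants (right), on separate axes. Bars use all reads and black points the libraries thinned to 349166 reads. Outside the set the P90 bars, at 806 and 630, are above the P10 bars, at 353 and 299.

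The 5 largest rises among called variants that moved the same way in both strains were in variants with 103 to 2707 reads. Variant da3ca5f1-1 went from 25 reads in NEC10 and 13 in GAERS10 to 2017 in NEC90 and 652 in GAERS90 (log2 fold change 4.32, SE 0.82, edgeR adjusted p = 0.0168). Variant 72602792 had 9, 27, 1299 and 788 reads in the same order (4.35, SE 0.54, edgeR adjusted p = 0.0160), and its shares at P90, 0.0867% and 0.0510%, were both more than 10-fold those at P10. Variant 38114274-1, with 9, 10, 1553 and 124 reads, was also called (log2 fold change 4.83, edgeR adjusted p = 0.0204). Variant fa9f2dbf had 13, 4, 1368 and 272 reads (log2 fold change 4.82). With 4 reads in GAERS10, it passed the filter on low counts only with the help of its P90 reads, so its values are a description. Both variants were far higher in NEC90 than in GAERS90. Without NEC90 these changes were 2.03 and 3.22. The last of the 5 had 1 read over both P10 libraries and 102 over both P90 libraries, a ratio of shares of 34.2 with an exact 95% counting interval of 5.995 to 1362. It passed the filter on low counts only through its P90 reads, so its values are a description. Variant 72602792 was the only one of these 5 that was also called with TMM factors.

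Of the 5 largest falls, df94564a is described above. Variant 5cc5e145 held 0.110% of NEC10, 0.163% of GAERS10, 0.0152% of NEC90 and 0.00810% of GAERS90 (log2 fold change -3.55, SE 0.62, edgeR adjusted p = 0.0168). Variant 40086ed2 held 0.151%, 0.238%, 0.0121% and 0.0400% in that order (-2.90, SE 0.70, edgeR adjusted p = 0.0244). All 5 calls were lost with TMM factors (log2 fold changes of -4.56 to -3.54, edgeR adjusted p of 0.0652 to 0.0837). In 5cc5e145 and 40086ed2 each P10 share was above each P90 share, and the call on 40086ed2 was lost without NEC90 (-2.28). Variant a0cc1f86 (-2.83, edgeR adjusted p = 0.0498) rested on GAERS10, where it held 0.486%, against 0.0381% in NEC10, 0.0264% in NEC90 and 0.0472% in GAERS90, and without GAERS10 its change was -0.05. Its call was also lost with strain as a block (log2 fold change -1.95, edgeR adjusted p = 0.0724) and without NEC90 (-2.47). The same held with families summed (-2.83) and at a minimum of 10 reads in every library (-2.83). Variant 09938b28 (-2.73, edgeR adjusted p = 0.0447) rested on 54 of its 99 reads, which were in NEC10, and without NEC10 its change was -0.18. Its call was also lost with families summed (log2 fold change -2.55, edgeR adjusted p = 0.0522).

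No variant passed an adjusted p of 0.05 between the strains in edgeR (0% of 1894 tested), while 39 variants outside the prioritized set had an unadjusted p under 0.05, and DESeq2 called 22, all outside the set. Each strain arm mixes the ages, so an age difference is part of the spread within it, and its effect on the strain calls was not tested. In simulated tables with the same totals, the fit recovered 83.5% of 200 variants changed 4-fold for strain, with 0 false calls. Those tables held a fixed spread and no age difference, so this recovery does not give the power of the strain comparison in these libraries. With age as a block edgeR called 8, 3 higher and 5 lower in GAERS, and it called 1 without the filter on low counts and 2 without NEC10. Without a model, 29 variants outside the set (1.48%) had both GAERS shares above both NEC shares, against 1.52% of all 2108, and 275 (14.1%) had both below, against 13.8%. Both percentages were close to those of the whole table. Among the most read, dac42fd0-1 had the lowest unadjusted p of the 20 (log2 fold change 2.68, SE 1.10, edgeR adjusted p = 0.999), with 241 reads in NEC10 and 7322 in GAERS10 but 2080 in NEC90 and 3691 in GAERS90.

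Some variants were concentrated in 1 library. By a rule chosen after the values were seen, a share at least 4-fold above that in every other library on at least 100 reads, 31 variants outside the set qualified, and they were 1.47% of all 2108. The rule can be met more easily where more variants reach 100 reads, and 165 of the 1956 did in NEC10, 386 in GAERS10, 1205 in NEC90 and 1038 in GAERS90. GAERS10 had 9 of them, which held 3.66% of its reads, NEC10 had 6 (1.69%), NEC90 had 10 (1.07%) and GAERS90 had 6 (0.659%). Variant d6ba0436 had 2124 reads in GAERS10 against 19 in NEC10, 187 in NEC90 and 205 in GAERS90, and 2a2a58ff had 2960 in GAERS90 against 78, 191 and 30 in NEC10, NEC90 and GAERS10. Variant 106ecba4-1 had 3071 in NEC90 against 12, 139 and 181 in NEC10, GAERS10 and GAERS90. Variant 6e6549c7, highest in NEC10, was almost missing from GAERS10, with 43 reads there against 2257 in NEC10, 2076 in NEC90 and 1604 in GAERS90. With 1 animal per strain and age, the animal, its amplification and its group cannot be told apart in these values.

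Library by library, the order of the most read variants changed. The 20 most read variants of each library made 42 different variants in all, and 6 were among the 20 in every library. Setting the shares of 2 libraries side by side variant by variant, 82.7% of the group's reads were matched between NEC90 and GAERS90 and 72.8% between NEC10 and GAERS10, but 64.1% between NEC10 and NEC90 and 59.5% between GAERS10 and GAERS90. The pairs that differ in both gave 65.3% (NEC10 and GAERS90) and 58.3% (NEC90 and GAERS10). The P90 pair was also the deepest. In rank over all 1956 variants, Spearman's rho was 0.962 between NEC90 and GAERS90, 0.907 between NEC10 and GAERS10, 0.910 between NEC10 and NEC90 and 0.882 between GAERS10 and GAERS90, values that mix depth with composition and are given as a description. Among the 100 most read variants the order of these pairs was another, with 0.301, 0.467, 0.288 and 0.293, and it was 0.418 between NEC10 and GAERS90 and 0.277 between NEC90 and GAERS10, which differ in age and strain.

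Nearly all variants were seen at both ages. Of the 1956, 1790 had reads in all 4 libraries, 104 in 3, 49 in 2 and 13 in 1, and those 13 held 42 reads in all. NEC10 had 1840 of the variants with at least 1 read, GAERS10 1856, NEC90 1951 and GAERS90 1936, while all 152 prioritized variants had reads in every library. At an equal 349166 reads, 1840, 1782, 1914 and 1879 would be expected in that order, so GAERS10 would have had the fewest and the P90 libraries still more. A total of 52 variants had no read in either P10 library, with at most 33 reads each at P90, and 0 had no read in either P90 library. A variant without a read in the P10 libraries at these depths is not shown to be absent there.

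Predicted proteins were at hand for 50 of the variants, with 46491 reads (2.99% of the group's reads), the most read of them at rank 116. Matching them to the 48 exons gave a structure for each that accounted for its length exactly, and the procedure returned the listed exons in all 85 prioritized variants, of 90 tried, whose length it accounted for exactly. The proteins were 2034 to 2272 residues long, against 2315 codons in the reference, and the study's minimum length for a predicted frame bounds the lower end. All 50 lacked exon 26, as did all 8 variants with a nucleotide sequence and 143 of the 152 prioritized variants. Exons 10 and 19 were each absent from 25 and exon 45 from 29 of the 50. Beside these 4 exons, each predicted protein lacked a run of other exons, 22 runs in all, and 1 of the 22 also occurred in a prioritized variant. A variant with a long frame is outside the set where a pore-forming domain is incomplete. Runs that meet a domain and are rarely shared with prioritized variants therefore follow largely from the choice. Of the 50, 47 had only skips that keep the frame, which the requirement for a long open reading frame favours. In the other 3 the predicted protein began downstream of exons 1 to 4 (619 nt). Whether those transcripts carry exons 1 to 4 untranslated was not tested, since a protein shows translated exons only.

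**Figure D5:**
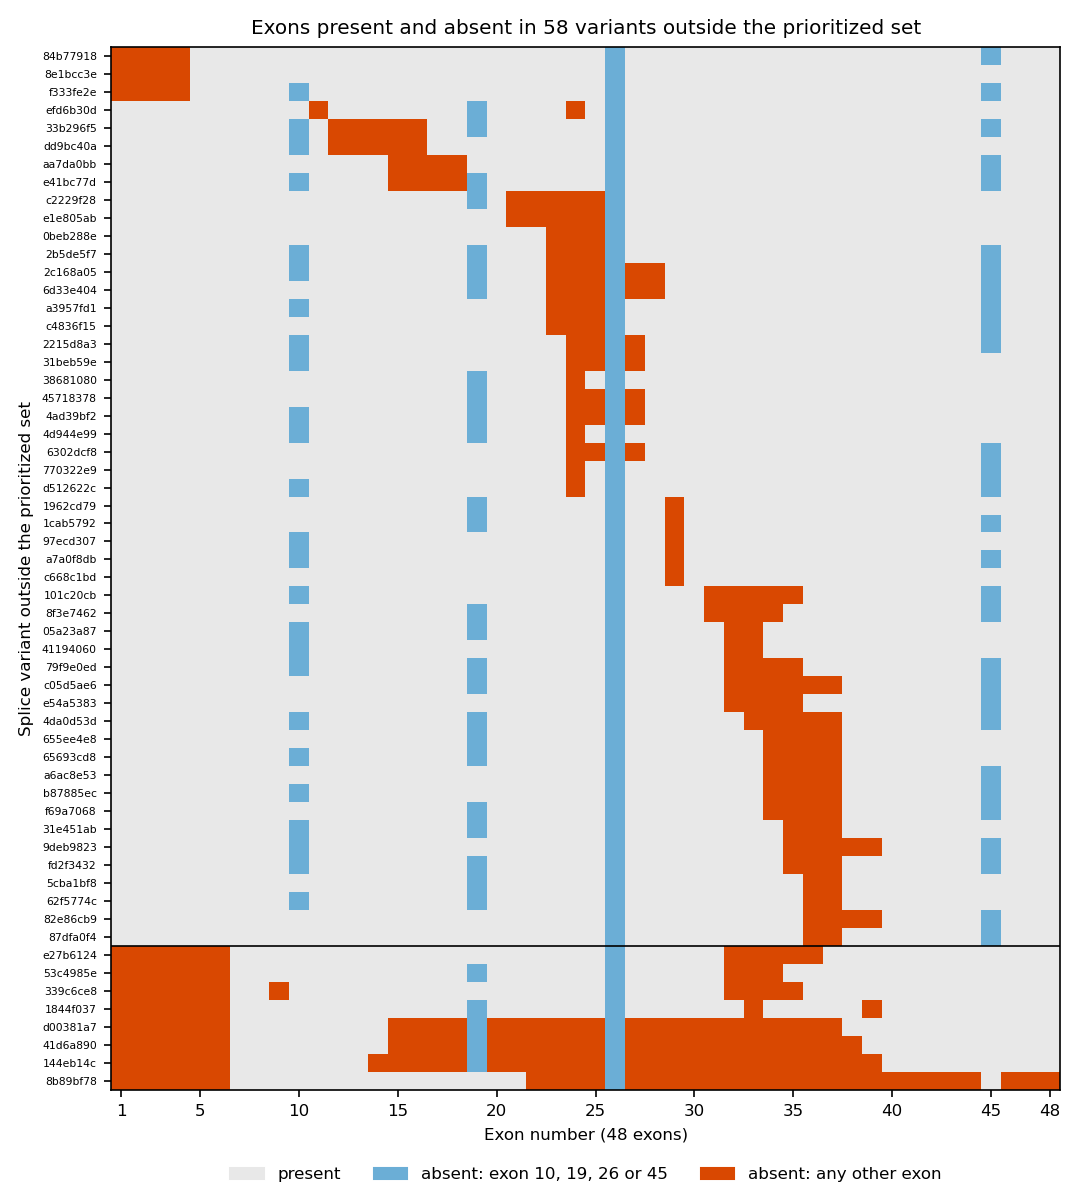
Exons present (grey) and absent in 58 variants outside the prioritized set, 1 row per variant and 1 column per exon (1 to 48). Blue marks the absence of exon 10, 19, 26 or 45 and orange that of any other exon. The 50 rows above the black line come from predicted proteins, where absent means not in the protein, and the 8 below from nucleotide sequences. In the 50 upper rows the orange runs fall into exons 1 to 4, 11 to 18, 21 to 29 and 31 to 39, and in the 8 lower rows exons 1 to 6 are absent throughout.

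The runs can be ordered along the channel. The predicted protein lacked the part of domain I from exons 1 to 4 in 3 variants. Runs touched domain II in 4 (exons 12 to 16, 15 to 18 or 15 to 19), domain III in 22, domain IV in 20, and domains II and III together in efd6b30d, which lacked exons 11 and 24. In domain III, 2 variants lacked exons 21 to 26 (783 nt with exon 26 included), 4 lacked exons 23 to 26, 2 lacked exons 23 to 28, 4 lacked exon 24 (60 nt) alone beside the common exons, 5 lacked exons 24 to 27 (276 nt) and 5 lacked exon 29 (138 nt). In domain IV the largest families lacked exons 34 to 37 (450 nt, 5 variants) and exons 36 to 37 (258 nt, 3 variants). Where a run occurred in several variants, as 13 runs did, those variants differed from each other in exon 10, 19 or 45, so that the same skip was found on different backgrounds of the common cassette exons.

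The most read of the 50 was c2229f28, which lacked exons 19 and 21 to 26. It held 115 reads in NEC10, 340 in GAERS10, 605 in NEC90 and 717 in GAERS90. Its partner with exon 19, e1e805ab, held 116, 438, 462 and 500 reads. Without exon 24, 38681080 held 73, 119, 638 and 841 reads, and 4d944e99, which also lacked exon 10, held 93, 114, 645 and 740. Without exon 29, 1962cd79 held 46, 85, 584 and 603 reads. Read counts of the 50 ranged from 442 to 1777, a narrow range beside that of the whole group.

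Together the 50 held 0.876% of the reads in NEC10, 0.797% in GAERS10, 1.39% in NEC90 and 1.12% in GAERS90. All 50 were tested, and 23 were called higher and 1 lower at P90 on column totals, with a median log2 fold change of 0.89, beside 32.6% called and a median of 0.96 over all variants. By domain, those with a run in domain IV held 0.225%, 0.197%, 0.506% and 0.374% in that order, with 14 of 20 called higher (median 1.16). Those with a run in domain III held 0.441%, 0.422%, 0.698% and 0.597%, with 7 of 22 called higher (median 0.73). The 4 with a run in domain II only held 0.127%, 0.0933%, 0.0874% and 0.0644%, with none called higher and e41bc77d, which lacked exons 15 to 19, called lower. In that last group both P90 shares were below both P10 shares, which rested on e41bc77d: the 2 variants that lacked exons 12 to 16 held 0.0481%, 0.0215%, 0.0441% and 0.0316% and the 1 that lacked exons 15 to 18 held 0.0407%, 0.0149%, 0.0223% and 0.0152%, with overlapping ages in both. Variant efd6b30d, with runs in domains II and III, held 0.00716%, 0.00627%, 0.0178% and 0.0166% and was called higher (log2 fold change 1.37). The 3 whose predicted protein lacked the start of domain I held 0.0759%, 0.0780%, 0.0808% and 0.0668%, with overlapping ages and 1 called higher. In the groups of domains III and IV both P90 shares were above both P10 shares. With TMM factors none of the 50 was called. The difference between these groups was not tested.

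The 50 can also be grouped by common cassette exon. The 25 without exon 19 held 0.399%, 0.354%, 0.750% and 0.643% of the reads in NEC10, GAERS10, NEC90 and GAERS90, with 18 called higher and 1 lower (median log2 fold change 1.19), and the 25 with exon 19 held 0.477%, 0.443%, 0.640% and 0.476%, with 5 called higher (0.42) and overlapping ages. For exon 45, 13 of 21 with the exon were called higher (1.09), against 10 of 29 without it (0.43), and 1 lower. For exon 10, 14 of 25 with the exon were called higher (1.13), against 9 of 25 without it (0.52), and 1 lower. The 15 that lacked both exons 10 and 45 held 0.301%, 0.246%, 0.345% and 0.225%, so that their ages overlapped. Over all variants tested, 31.4% were called higher and 1.16% lower, with a median log2 fold change of 0.96. These calls were made on column totals, and none in the 50 was kept with TMM factors. The groups share variants, and their difference was not tested.

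Some rows of the table share a read identifier and differ only in a numbered suffix. There were 80 such families outside the prioritized set, with 170 rows and 22.7% of the group's reads. In the prioritized set, where structures are listed, all 18 such families had identical junctions and differed only in their ends, so the rows of a family need not be different splice patterns. The most read was 93b7dee3, with 3 rows and 78891 reads, of which the row 93b7dee3-2 held 95.7% in NEC10, 95.6% in GAERS10, 92.9% in NEC90 and 92.9% in GAERS90. In the median family the leading row held 87.0% of the reads. Summing each family to 1 variant left 514 of 1684 tested variants outside the set called for age, beside 572 of 1810 over all variants.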

How the data were processed

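Full-length cDNA of Cacna1e from the thalamus of 4 rats was amplified, read on a MinION and base-called by the authors, who aligned the reads to rn6 with minimap2, moved junctions to those seen in short reads and merged the pooled reads into variants with FLAIR. The deposited table holds whole-number counts of reads per variant and library, not normalized. The variants described and the lists were chosen with earlier results of these data known. Shares were taken over each column total. EdgeR 4.0.16 (quasi-likelihood, filterByExpr, column totals as library sizes, factors of 1, Benjamini-Hochberg) was fitted across the whole table, with 2 P90 against 2 P10 and 2 GAERS against 2 NEC libraries, and DESeq2 1.42.0 was an alternative, beside TMM factors, other filters, the second factor as a block, families summed and each library left out. Fits were tested on simulated data. P-values measure the spread between single animals. Single values were compared by exact permutation. Zeros allow 3 reads per library. Named variants were the 20 with most reads, up to 5 called each way per comparison, those with nucleotide sequences, the 5 most read with predicted proteins and the most read family. The variants named as concentrated in or almost missing from 1 library, 8d3253b4, e41bc77d and efd6b30d were chosen after their values were seen. Sequences, predicted proteins and the prioritized list came from the study's supplementary files, parts of which were shortened. No genome was used.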

Additional observations from a re-analysis of the deposited data

Results flagged for a closer look

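In 4 of the 20 most read variants outside the prioritized set the older library differed from the younger in opposite directions in the strains, with Wilson intervals that did not overlap in either strain. Those intervals reflect counting error alone. They were apart in both strains for all of the 20 except dd1a071d-1 in NEC, so they selected little. The log2 ratio of the P90 over the P10 share was -0.42 in NEC and 0.52 in GAERS for ec12ea54, and 1.01 and -2.19 for dac42fd0-1. It was 0.31 and -1.55 for 8e9926ee, and 0.42 and -1.34 for c62e7456. With 1 animal per strain and age, the difference between the strains was not tested.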

How the results depend on the processing

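The mean share of reads outside the prioritized set stayed higher at P90 in all alternatives run (1.64 points counting no variant under 10 reads in any library, 4.20 without the 3 most read variants), and by 1.14 to 3.997 points when each library was left out. The strain difference in that share ran from -2.99 to 1.87 points over the same omissions, and turned to 1.87 without NEC90. The effective number stayed higher at P90 by 304.1 to 480.3, and by 140.8 as an inverse Simpson index. Its strain difference of -115.0 ran from -341.7 to 111.6 and changed sign without NEC90 (111.6) and without GAERS10 (50.5). The 546 age calls became 2 with TMM factors, 104 with DESeq2 and 349 among variants with at least 10 reads in every library, and ranged from 162 (without NEC90) to 537 when each library was left out, with 223 without GAERS10. There the lone library of an age was assumed to vary like the others. The count of strain calls was 22 with DESeq2, 8 with age as a block, 1 without the filter, and 0 to 2 when each library was left out. The share of the 20 most read variants was 28.4% with libraries weighted equally, 25.96% with families summed, and 23.0 to 28.6% when each library was left out. With a minimum of 10 reads, NEC10 held 1206 of the variants. The 15 named age calls on variants with over 3 reads at P10 were chosen on these same libraries. Their direction in the refits is therefore no separate check. With TMM factors 14 of the 15 were lost, 13 of them at an edgeR adjusted p of 0.0652 to 0.0837 and 1a65b4d4 at 0.492. In those 13 the log2 fold changes were -4.56 to -2.29 for the falls and 3.38 to 3.85 for the rises. The largest of these rises was that of fa9f2dbf, whose values are a description. DESeq2 lost 1 of 14, a minimum of 10 reads in every library 2 of 11, and strain as a block and families summed 2 each. The change of a0cc1f86 was -0.05 without GAERS10, and that of 09938b28 was -0.18 without NEC10. Replicate numbers name single libraries and pair none, and the fits with strain or age as a block gave 685 age calls and 8 strain calls. Depth limits the P10 values, with 1206 and 1305 variants at 10 reads or more.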
